A study of Mus musculus with 20 samples.

Results

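The genes described here are 45 named genes of motile cilia, out of 55401 genes in the count table. They are the forkhead factor Foxj1 together with parts of the axoneme, the microtubule shaft of the cilium. Each symbol was matched to 1 Ensembl identifier, and all 45 had enough reads to be tested in each fit. The set was proposed with results of these libraries in view, and part of it was chosen by the measured read counts of WT mice at 9 weeks. 6 of its genes, Cfap54, Ccdc153, Dnah10, Dnah3, Rgs22 and Frmpd2, are in the study's published list of genes changed by AAV-shA4 in WT mice. Dnah11 is in its list for SCA7 mice. The early comparison of WT mice, and the comparison of untreated WT mice by week label that shares its controls, are therefore given as descriptions with no test. The same holds for the values of Dnah11 in SCA7 mice.

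Cerebellar RNA was sequenced from 20 mice of the C57BL/6J strain, with 1 cerebellum in each library. The early experiment, labelled 9 weeks, held 3 WT mice treated with AAV-shA4 and 3 untreated WT mice. AAV-shA4 is a viral vector expressing a short hairpin RNA aimed at expanded CAG repeats, given into the blood through the retro-orbital sinus. The late experiment, labelled 25 weeks, held 5 AAV-shA4-treated SCA7 mice, 5 SCA7 mice given AAV-shSCR, a vector with a scrambled hairpin, and 4 untreated WT mice. SCA7 mice are 140Q/5Q knock-in animals, which carry a mouse Atxn7 allele with an expanded CAG repeat beside a normal allele. The methods state that untreated mice were injected with saline, so no group of WT mice with a scrambled vector stood beside the early AAV-shA4 group. The day from which weeks were counted is not given in the labels. The paper counts from the injection in both experiments, with 9 weeks for the early mice and a late time that differs from the label. Weeks below are those of the labels and are not ages of the mice. Nothing in the labels marks a batch, and week and experiment cannot be told apart.

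Motile cilia beat through dynein motors that slide neighbouring microtubules against each other. Outer arm dyneins give power, inner arm dyneins shape the bend, and radial spokes, the central apparatus and the nexin-dynein regulatory complex coordinate them. In the cerebellum such cilia are borne mainly by the ependymal cells that line the fourth ventricle and, in short tufts, by the epithelium of the choroid plexus. Foxj1 switches on the genes of motile cilia, together with RFX factors that bind a palindromic sequence called the X-box.

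Libraries held 31465586 to 54570503 counted reads. The cerebellar origin was checked by Purkinje cell (PC) genes, whose summed level was 6398 to 10436 TMM-scaled reads per 1000000 counted reads (CPM), and granule cell genes, at 3127 to 4222 CPM, in the 20 libraries. Atxn7, the gene carrying the expanded repeat, stood at 45.7 to 50.2 CPM in WT mice at 25 weeks, 45.6 to 53.4 CPM in AAV-shSCR-treated and 44.4 to 51.7 CPM in AAV-shA4-treated SCA7 mice. Its mRNA level thus overlapped between the groups, and it does not check the labels, because counts per gene do not separate the alleles. Genes of the choroid plexus were very uneven. The sum of 18 such genes ran from 59.8 CPM in replicate 2 of the AAV-shA4-treated SCA7 mice to 4105 CPM in replicate 4 of the untreated WT mice at 25 weeks, a 68.7-fold range. A second library stood apart for genes of antigen presentation and T cells, which summed to 123 CPM in replicate 3 of the AAV-shA4-treated WT mice and to 14 to 47.5 CPM in the others.

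The sequence before the start site was read for the genes that have a window in the RefSeq table of build GRCm38.p6, which covers 36 of the 45. Each window runs from 250 bases before the start to 50 bases after it. The 5 stretches that follow are the 250 bases before the start, 5′ to 3′ on the gene's strand. They are shown because Ccdc153 and Dnah10 had among the largest early differences, Hydin and Cfap44 hold the full spaced X-box spelling, and Cfap43 holds a forkhead spelling. Capitals mark GTTGCC or its reverse complement GGCAAC, the X-box half-site, the spaced spelling, which is GTNNCC and GNAAC with 3 free bases between them, or its reverse complement, GTTNC and GGNNAC with 3 free bases between them, and the forkhead spelling GTAAACA.
Ccdc153, chr9:44240427-44240676, plus strand: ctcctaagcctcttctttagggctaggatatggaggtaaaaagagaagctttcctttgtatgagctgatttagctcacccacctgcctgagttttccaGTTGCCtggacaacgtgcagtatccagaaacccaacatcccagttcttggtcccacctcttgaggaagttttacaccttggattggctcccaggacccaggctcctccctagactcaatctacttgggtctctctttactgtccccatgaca
Dnah10, chr5:124724835-124725084, plus strand: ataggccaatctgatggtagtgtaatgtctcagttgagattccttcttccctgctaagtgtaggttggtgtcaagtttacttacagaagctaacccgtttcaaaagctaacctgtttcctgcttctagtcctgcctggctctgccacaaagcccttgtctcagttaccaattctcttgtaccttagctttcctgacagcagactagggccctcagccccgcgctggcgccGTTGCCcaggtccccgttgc
Hydin, chr8:110266727-110266976, plus strand: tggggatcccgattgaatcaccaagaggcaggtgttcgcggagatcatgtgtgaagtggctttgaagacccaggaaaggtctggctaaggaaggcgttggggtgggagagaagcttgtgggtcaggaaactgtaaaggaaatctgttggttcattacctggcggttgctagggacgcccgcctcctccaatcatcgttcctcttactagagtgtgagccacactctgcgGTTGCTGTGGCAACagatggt
Cfap44, chr16:44394549-44394798, plus strand: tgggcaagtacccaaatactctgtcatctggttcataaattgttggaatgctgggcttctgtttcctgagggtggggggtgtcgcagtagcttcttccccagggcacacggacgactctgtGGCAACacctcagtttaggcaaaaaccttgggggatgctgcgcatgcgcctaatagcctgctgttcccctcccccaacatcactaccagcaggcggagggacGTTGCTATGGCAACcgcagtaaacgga
Cfap43, chr19:47837362-47837611, minus strand: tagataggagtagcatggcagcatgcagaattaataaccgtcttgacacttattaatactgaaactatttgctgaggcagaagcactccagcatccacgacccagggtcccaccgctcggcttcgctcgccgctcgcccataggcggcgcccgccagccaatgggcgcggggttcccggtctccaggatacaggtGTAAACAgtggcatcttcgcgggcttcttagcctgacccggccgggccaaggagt
The half-site lay 152 bases before the start in Ccdc153 and 20 bases before it in Dnah10. The spaced spelling began 21 bases before the start in Hydin and 27 bases before it in Cfap44. Over both strands of the whole window, the spaced spelling was found in 7 of 36 members, namely Ak9, Cfap206, Cfap44, Cfap61, Hydin, Spag16 and Spag6l. Among 17492 protein-coding genes with a window it was found in 2.55%. The half-site, which overlaps the spaced spelling where both match, was in 13 of 36 members and in 14.3% of all genes. GTAAACA was in 4 of 36, namely Ak7, Cfap43, Iqub and Mlf1, against 3.45% of all genes. For comparison, the letters CCAAT were in 15 of 36 and 42.3%, and TATAAA in 3 of 36 and 14.8%. These are matches of letters and not mapped sites, and 9 spellings were searched.

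**Figure D1:**
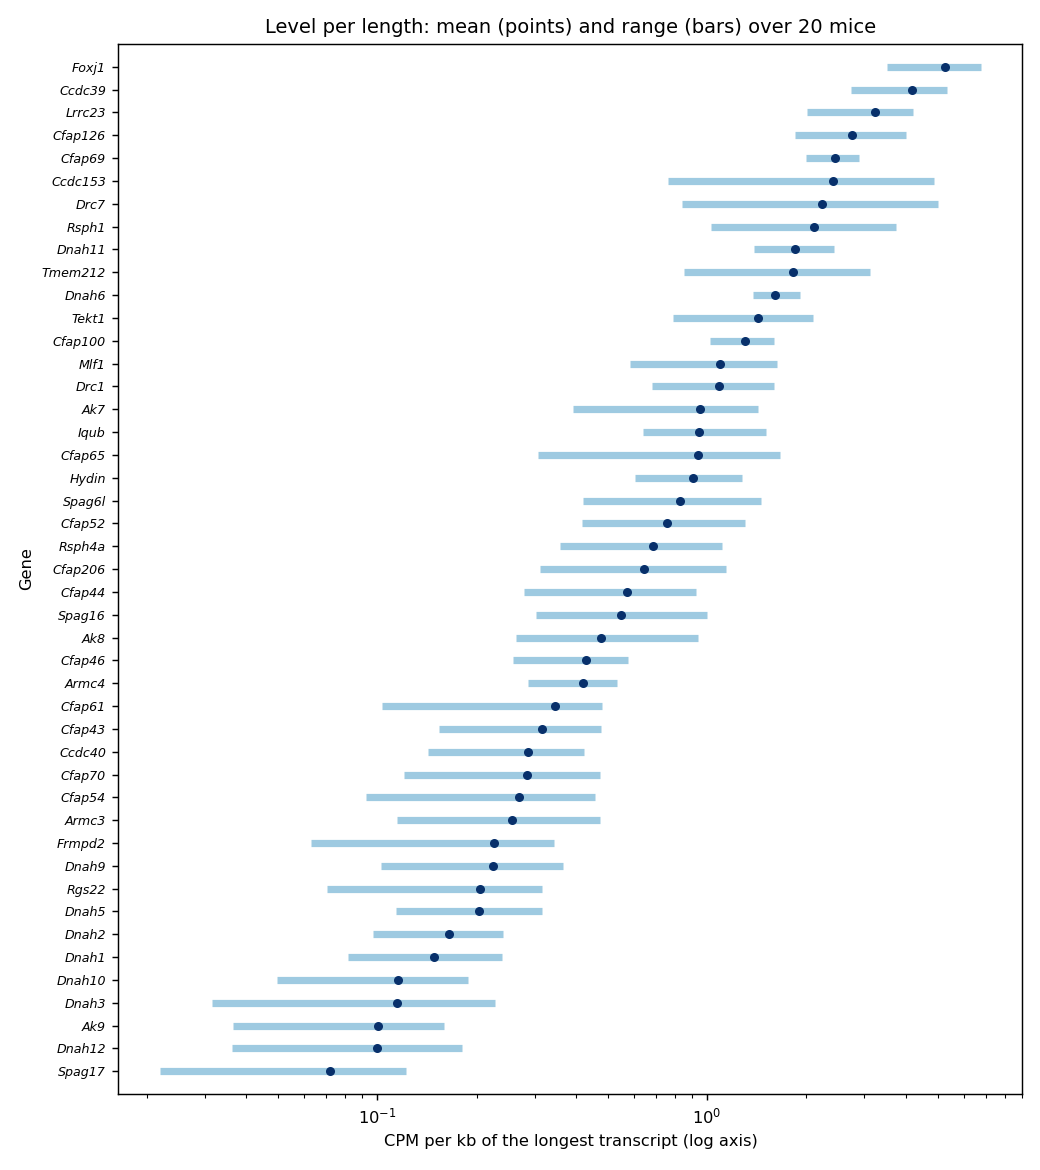
Mean level of each of the 45 genes over 20 mice, in CPM per kb of the longest transcript on a log axis (points), with the range from the lowest to the highest mouse (bars). Foxj1 had the highest mean, 5.26 CPM per kb, and Spag17 the lowest, 0.0719 CPM per kb.

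Levels were low for most of these genes and differed widely between them. Per kb of the longest transcript, the mean over 20 mice was highest for Foxj1, at 5.26 CPM per kb. Next stood Ccdc39, a protein of the axonemal ruler, at 4.17, Lrrc23, a radial spoke protein, at 3.23, and Cfap126, a protein on the microtubule wall, at 2.75 CPM per kb. The lowest were Spag17, of the central apparatus, at 0.0719, and the inner arm dyneins Dnah12, at 0.0999, Dnah3, at 0.115, and Dnah10, at 0.116 CPM per kb. Heavy chains of the dyneins were spread over the whole scale, since the outer arm chain Dnah11, at 1.85, stood well above Dnah9, at 0.224, and Dnah5, at 0.204 CPM per kb. In counted reads, the lowest value of a member in a mouse was 8, for Spag17 and Ak9, and the highest 1790, for Dnah11.

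The mice of a group differed more in these genes than in most others. The SD of log2 CPM within groups had a median of 0.40 over the 45 genes, against 0.093 over 15095 genes tested and 0.082 over 28 genes of primary cilia and transport. It ran from 0.093 for Dnah11 to 0.74 for Drc7. Dnah6, Ccdc39, Cfap100, Cfap69 and Hydin also varied little, at 0.10 to 0.19. Choroid plexus genes had a median SD of 1.16. The lists were not matched for level. Most members had low counts, and the part of counting error in these SDs was not tested. The summed level of the 45 genes was 137 to 161 CPM (148 ± 12.4, SD, n = 3) in untreated WT mice at 9 weeks and 184 to 205 CPM (192 ± 11.7, n = 3) in AAV-shA4-treated WT mice. At 25 weeks it was 189 to 232 CPM (208 ± 18.9, n = 4) in untreated WT mice, 175 to 210 CPM (190 ± 17.4, n = 5) in AAV-shSCR-treated and 150 to 225 CPM (199 ± 29.0, n = 5) in AAV-shA4-treated SCA7 mice. The 3 late groups overlapped, and the untreated WT mice at 9 weeks lay below all other mice but 1. That mouse, replicate 4 of the AAV-shA4-treated SCA7 mice, had the lowest value of its group in 35 of the 45 genes and the highest in none. In bulk tissue, fewer ciliated cells and less RNA per cell cannot be told apart.

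**Figure D2:**
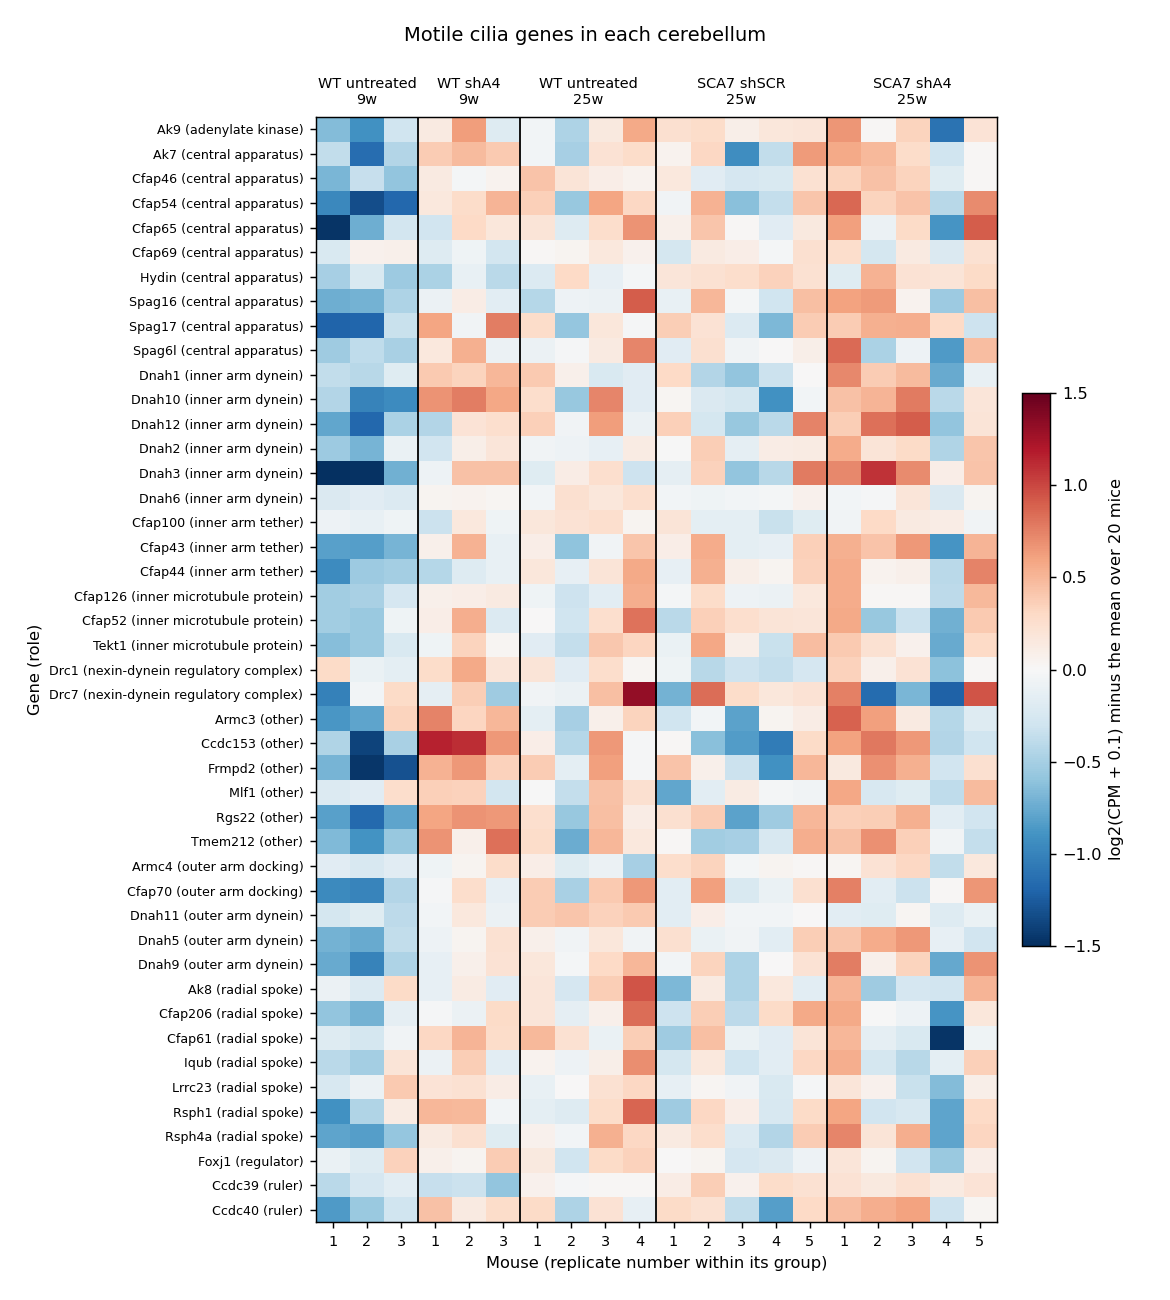
Level of each of the 45 genes (rows, with the role in brackets) in each of 20 mice (columns, by group and replicate number), as log2(CPM + 0.1) minus the gene's mean over all mice. Blue is below and red above the mean, and the palette ends at 1.5 in either direction. The untreated WT mice at 9 weeks are below the mean for most genes, and replicate 4 of the AAV-shA4-treated SCA7 mice has the lowest value of its group in 35 of 45 rows.

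Foxj1, the regulator, differed little between conditions. Foxj1 stood at 12.7, 11.9 and 17.3 CPM in the 3 untreated WT mice at 9 weeks and 14.4, 14.02 and 17.8 CPM in the 3 AAV-shA4-treated WT mice. At 25 weeks Foxj1 stood at 15.1, 11.1, 16.6 and 17.4 CPM in untreated WT mice, 13.7, 13.97, 11.4, 11.7 and 12.9 CPM in AAV-shSCR-treated SCA7 mice and 15.4, 13.97, 11.2, 9.24 and 14.6 CPM in AAV-shA4-treated SCA7 mice. All 5 groups overlapped. Its log2 fold change against untreated WT mice of 25 weeks was -0.24 (SE 0.14) with AAV-shSCR (adjusted p = 0.272) and -0.22 (SE 0.14) with AAV-shA4 (adjusted p = 0.342). The log2 difference was 0.14 (SE 0.14) for the AAV-shA4-treated against the untreated WT mice and 0.11 (SE 0.16) for untreated WT mice at 25 against 9 weeks.

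The outer arm dynein Dnah11 was lower in SCA7 mice with either vector, which is a description, since the study's list for these mice brought it into the set. Dnah11 stood at 21.4, 22.6 and 19.5 CPM in the 3 untreated WT mice at 9 weeks and 24.8, 28.7 and 24.2 CPM in the 3 AAV-shA4-treated WT mice. The values at 25 weeks were 33.6, 34.1, 32.7 and 33.6 CPM in untreated WT mice, 22.9, 27.6, 24.9, 24.9 and 25.7 CPM in AAV-shSCR-treated SCA7 mice and 23.0, 22.6, 26.1, 22.4 and 24.0 CPM in AAV-shA4-treated SCA7 mice. Each SCA7 mouse, with either vector, lay below each untreated WT mouse of 25 weeks. The log2 fold change was -0.41 (SE 0.053) with AAV-shSCR and -0.50 (SE 0.053) with AAV-shA4, which are folds of 0.753 and 0.705. Between the SCA7 groups the difference was -0.094 (SE 0.051), and they overlapped. Lists of other cell types moved with it. Of the PC genes, all 6 were also lower in both SCA7 groups, summing to 9236 to 10436 CPM in untreated WT mice, 6398 to 7175 CPM with AAV-shSCR and 6472 to 7571 CPM with AAV-shA4. The 6 oligodendrocyte genes summed to 5515 to 6530 CPM in untreated WT mice, 4042 to 4870 CPM with AAV-shSCR and 4485 to 5114 CPM with AAV-shA4. The 8 genes of astrocytes and Bergmann glia summed to 3044 to 3238 CPM, 2818 to 3012 CPM and 2753 to 3264 CPM in the same order, so that only AAV-shSCR lay apart from WT mice. The part of these cell types in the result was not tested. Dnah11 overlaps Cdca7l on the opposite strand, which had a mean of 28.4 reads against 1036 for Dnah11. Cdca7l differed from untreated WT mice by -0.53 (SE 0.21, adjusted p = 0.0971) with AAV-shSCR and -0.51 (SE 0.21, adjusted p = 0.123) with AAV-shA4. Its part in the values of Dnah11 was not tested. Dnah11 was also higher in untreated WT mice at 25 than at 9 weeks, by 0.66 (SE 0.069) on the log2 scale, and higher by 0.29 (SE 0.085) in AAV-shA4-treated than in untreated WT mice, with no overlap in either comparison.

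The other outer arm chains had a different profile. Dnah5 stood at 1.85, 1.78 and 2.37 CPM in the 3 untreated WT mice at 9 weeks and 2.93, 3.18 and 3.66 CPM in the 3 AAV-shA4-treated WT mice. In the late experiment Dnah5 was at 3.26, 2.97, 3.48 and 2.97 CPM in untreated WT mice, 3.66, 2.89, 2.97, 2.76 and 4.04 CPM in AAV-shSCR-treated SCA7 mice and 4.15, 4.59, 4.93, 2.83 and 2.52 CPM in AAV-shA4-treated SCA7 mice. The log2 difference was 0.70 (SE 0.18) for the AAV-shA4-treated against the untreated WT mice and 0.66 (SE 0.20) for untreated WT mice at 25 against 9 weeks, without overlap in either. Dnah9 stood at 1.70, 1.41 and 2.10 CPM in the 3 untreated WT mice at 9 weeks and 2.69, 3.10 and 3.43 CPM in the 3 AAV-shA4-treated WT mice. Untreated WT mice of 25 weeks had 3.32, 2.89, 3.64 and 4.21 CPM, AAV-shSCR-treated SCA7 mice 2.86, 3.74, 2.11, 2.96 and 3.43 CPM and AAV-shA4-treated SCA7 mice 5.06, 3.11, 3.73, 1.68 and 4.74 CPM. Both heavy chains overlapped between the 3 late groups, and the 6 early mice were separated by treatment. For Dnah9 the log2 differences were 0.82 (SE 0.19) and 1.01 (SE 0.27) in the same order, and 25 weeks lay above 9 weeks in each untreated mouse.

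Of the 6 inner arm dyneins, Dnah10, Dnah3 and Dnah12 had large differences in WT mice and low levels. Dnah10 stood at 1.08, 0.696 and 0.728 CPM in the 3 untreated WT mice at 9 weeks and 2.44, 2.63 and 2.30 CPM in the 3 AAV-shA4-treated WT mice. At 25 weeks the level was 1.82, 0.982, 2.55 and 1.32 CPM in untreated WT mice, 1.53, 1.27, 1.23, 0.754 and 1.45 CPM in AAV-shSCR-treated SCA7 mice and 2.06, 2.18, 2.64, 1.11 and 1.71 CPM in AAV-shA4-treated SCA7 mice. AAV-shA4-treated SCA7 mice had a higher mean than AAV-shSCR-treated ones, with a log2 fold change of 0.64 (SE 0.26), but the groups overlapped and the adjusted p was 0.563. Dnah3 stood at 0.387, 0.392 and 0.728 CPM in the 3 untreated WT mice at 9 weeks and 1.20, 1.76 and 1.76 CPM in the 3 AAV-shA4-treated WT mice. The late values of Dnah3 were 1.11, 1.38, 1.53 and 1.01 CPM in untreated WT mice, 1.15, 1.64, 0.810, 0.928 and 2.24 CPM in AAV-shSCR-treated SCA7 mice and 2.15, 2.80, 2.14, 1.37 and 1.74 CPM in AAV-shA4-treated SCA7 mice. Dnah3 differed from untreated WT mice by 0.70 (SE 0.27) with AAV-shA4, the largest value of the 45 in that comparison, with an adjusted p of 0.0994. It overlaps Lyrm1 on the opposite strand, which had 314 reads on average against 55.1 for Dnah3. Dnah12 stood at 0.602, 0.435 and 0.770 CPM in the 3 untreated WT mice at 9 weeks and 0.788, 1.29 and 1.33 CPM in the 3 AAV-shA4-treated WT mice. At 25 weeks Dnah12 stood at 1.44, 1.06, 1.76 and 1.03 CPM in untreated WT mice, 1.45, 0.906, 0.712, 0.812 and 1.93 CPM in AAV-shSCR-treated SCA7 mice and 1.47, 2.05, 2.17, 0.698 and 1.29 CPM in AAV-shA4-treated SCA7 mice. Within each SCA7 group Dnah12 varied more than 2-fold between mice, so its late means do not separate. Early log2 differences were 1.56 (SE 0.22) for Dnah10, 1.63 (SE 0.31) for Dnah3 and 0.91 (SE 0.31) for Dnah12, each without overlap.

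Dnah6 was the inner arm chain with the highest level per length and the least spread, and it is described because of that, after its values were seen. Dnah6 stood at 17.4, 18.1 and 17.6 CPM in the 3 untreated WT mice at 9 weeks and 20.9, 21.1 and 20.7 CPM in the 3 AAV-shA4-treated WT mice. The values at 25 weeks were 19.8, 24.0, 22.8 and 24.2 CPM in untreated WT mice, 19.7, 19.4, 19.7, 19.96 and 21.3 CPM in AAV-shSCR-treated SCA7 mice and 19.7, 19.98, 23.0, 17.5 and 20.9 CPM in AAV-shA4-treated SCA7 mice. The treated WT mice lay above the untreated ones, and the 4 untreated WT mice at 25 weeks lay above those at 9 weeks. In SCA7 mice its log2 fold change was -0.18 (SE 0.072) with AAV-shSCR and -0.16 (SE 0.072) with AAV-shA4, with adjusted p of 0.108 and 0.152. Without replicate 1 of the untreated WT mice these became -0.24 and -0.23, with adjusted p of 0.0292 and 0.0391. Dnah1 and Dnah2 had 1.05 to 3.09 and 1.33 to 3.31 CPM over the 20 mice, with late groups that overlapped.

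Ccdc39 and Ccdc40 form the molecular ruler that spaces dyneins along the axoneme. Ccdc39 stood at 11.1, 12.4 and 13.2 CPM in the 3 untreated WT mice at 9 weeks and 11.7, 11.9 and 9.83 CPM in the 3 AAV-shA4-treated WT mice. In the late experiment Ccdc39 was at 15.5, 14.6, 15.02 and 15.04 CPM in untreated WT mice, 16.05, 19.2, 15.5, 17.9 and 17.4 CPM in AAV-shSCR-treated SCA7 mice and 17.2, 16.4, 17.5, 16.2 and 17.1 CPM in AAV-shA4-treated SCA7 mice. Ccdc39 rose in SCA7 mice given AAV-shSCR against untreated WT mice, with a log2 fold change of 0.19 (SE 0.059) and an adjusted p of 0.0366, a fold of 1.14 that is under the limit of 1.3. With AAV-shA4 the value was 0.17 (SE 0.059) (adjusted p = 0.0770), and there the groups did not overlap. The adjusted p passed 0.05, between 0.0507 and 0.0966, when replicate 2, 4 or 5 of the AAV-shSCR group or any 1 of the 4 WT mice was left out. In the early experiment Ccdc39 was 1 of 3 members with a lower mean in AAV-shA4-treated than in untreated WT mice, at -0.14 (SE 0.10). It overlaps Ttc14 on the opposite strand, which had 7733 reads on average against 596, and Ttc14 differed by 0.046 (SE 0.066) and 0.011 (SE 0.066) in the same comparisons of SCA7 mice. The libraries keep strand, but whether counting used it is not given in the sources used here. Ccdc40 stood at 0.710 to 2.12 CPM, and its early difference was 0.90 (SE 0.23) on the log2 scale.

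Of the 5 genes that tether inner arms or dock outer arms, Cfap43, Cfap44 and Cfap70 were low in untreated WT mice of 9 weeks. Cfap43 stood at 0.968, 0.957 and 1.06 CPM in the 3 untreated WT mice at 9 weeks and 1.87, 2.60 and 1.64 CPM in the 3 AAV-shA4-treated WT mice. Untreated WT mice of 25 weeks had 1.91, 1.14, 1.72 and 2.40 CPM, AAV-shSCR-treated SCA7 mice 1.92, 2.66, 1.60, 1.62 and 2.30 CPM and AAV-shA4-treated SCA7 mice 2.62, 2.44, 2.84, 0.921 and 2.57 CPM. Within the AAV-shA4-treated SCA7 mice, replicate 4 stood far below the other 4, and Cfap43 overlaps Gsto1 on the opposite strand (809 reads on average against 74.5). Cfap44 stood at 1.83, 2.44 and 2.498 CPM in the 3 untreated WT mice at 9 weeks and 2.66, 3.13 and 3.34 CPM in the 3 AAV-shA4-treated WT mice. At 25 weeks the level was 4.09, 3.32, 4.16 and 5.39 CPM in untreated WT mice, 3.30, 5.27, 3.85, 3.71 and 4.62 CPM in AAV-shSCR-treated SCA7 mice and 5.37, 3.73, 3.81, 2.70 and 6.10 CPM in AAV-shA4-treated SCA7 mice. The lowest mouse at 25 weeks in Cfap44 was again replicate 4 of the AAV-shA4-treated SCA7 mice. Cfap70 stood at 0.452, 0.435 and 0.687 CPM in the 3 untreated WT mice at 9 weeks and 0.951, 1.18 and 0.878 CPM in the 3 AAV-shA4-treated WT mice. The late values of Cfap70 were 1.29, 0.664, 1.3 and 1.57 CPM in untreated WT mice, 0.855, 1.53, 0.810, 0.899 and 1.16 CPM in AAV-shSCR-treated SCA7 mice and 1.71, 0.855, 0.752, 0.984 and 1.59 CPM in AAV-shA4-treated SCA7 mice. Untreated WT mice at 25 weeks exceeded those at 9 weeks by 0.85 (SE 0.30) for Cfap43, 0.91 (SE 0.23) for Cfap44 and 1.20 (SE 0.33) for Cfap70, on the log2 scale. Cfap100, a further tether, and Armc4, a docking factor, stood at 3.57 to 3.68 and 1.22 to 1.29 CPM in those mice and at 3.97 to 4.60 and 1.01 to 1.58 CPM in untreated WT mice of 25 weeks, and varied by 1.57-fold and 1.86-fold between the lowest and highest mouse. Cfap100 differed by -0.29 (SE 0.11) with AAV-shSCR against untreated WT mice (adjusted p = 0.0865), and without replicate 1 of the AAV-shSCR group it was called lower, at -0.38 (adjusted p = 0.0192).

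**Figure D3:**
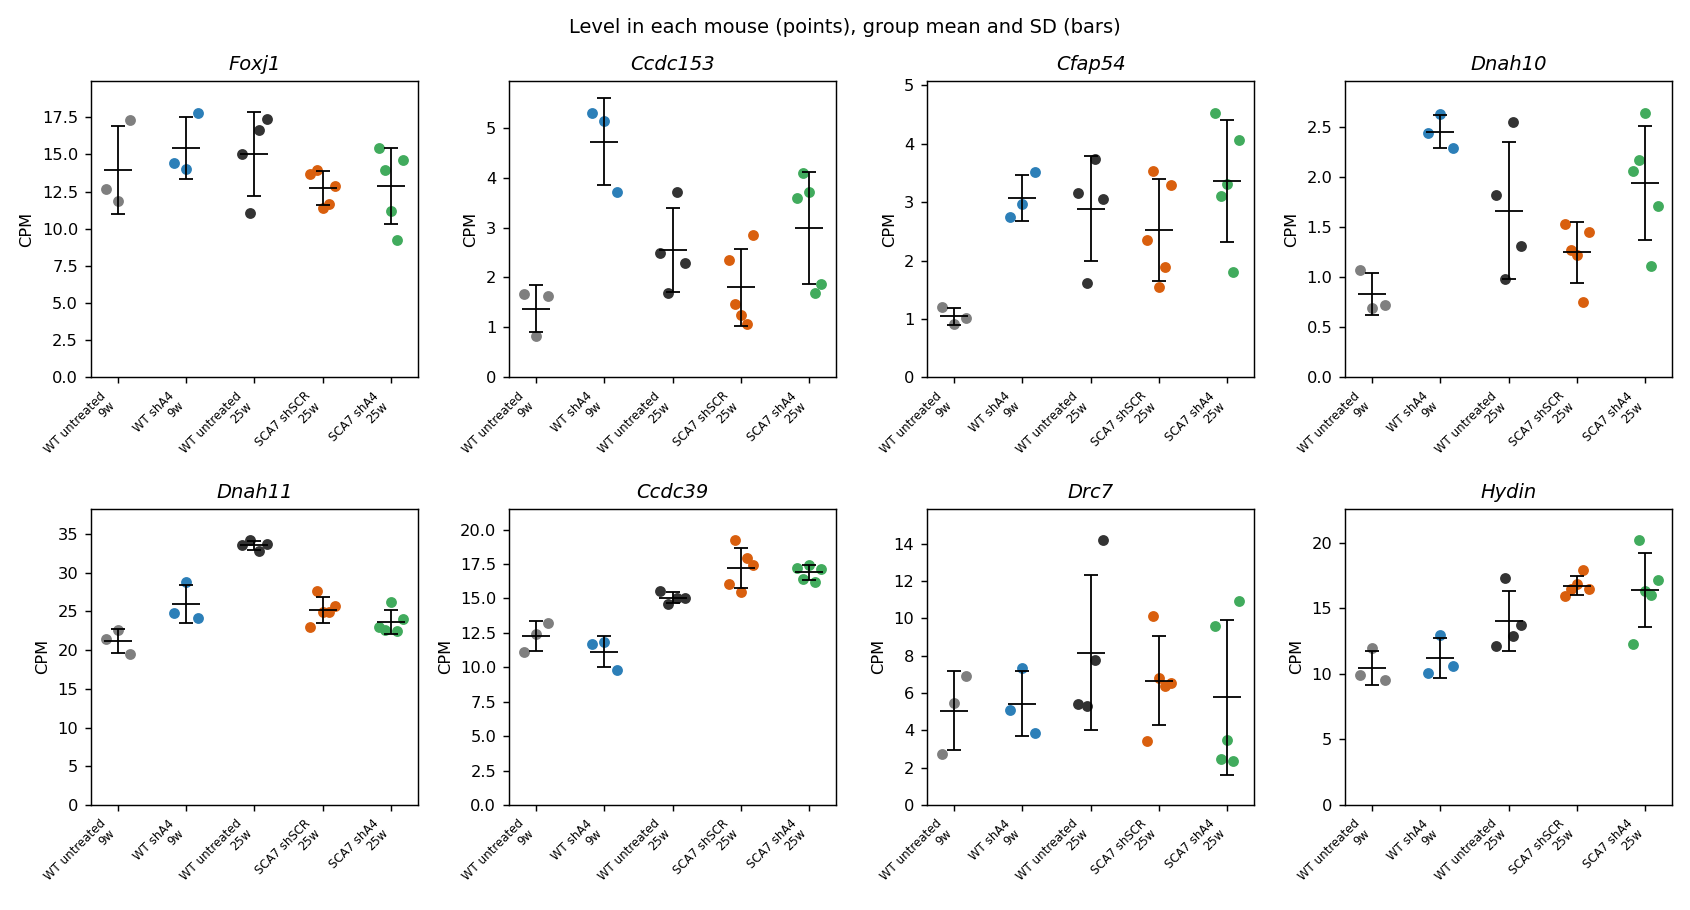
CPM of 8 genes in each mouse (points), by group, with the group mean and SD (bars). Axes start at 0. Dnah11 of each SCA7 mouse is below the 4 untreated WT mice of 25 weeks (32.7 to 34.1 CPM), and Ccdc153, Cfap54 and Dnah10 of the 3 AAV-shA4-treated WT mice are above the untreated WT mice of 9 weeks.

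The central apparatus was the largest group, with 9 genes. Cfap54 stood at 1.20, 0.914 and 1.02 CPM in the 3 untreated WT mice at 9 weeks and 2.74, 2.97 and 3.51 CPM in the 3 AAV-shA4-treated WT mice. At 25 weeks Cfap54 stood at 3.15, 1.62, 3.74 and 3.04 CPM in untreated WT mice, 2.36, 3.54, 1.55, 1.89 and 3.30 CPM in AAV-shSCR-treated SCA7 mice and 4.53, 3.11, 3.31, 1.81 and 4.06 CPM in AAV-shA4-treated SCA7 mice. Cfap54 was lowest in the untreated WT mice of 9 weeks, all of which lay below all other mice. Cfap46 stood at 2.11, 2.70 and 2.25 CPM in the 3 untreated WT mice at 9 weeks and 3.80, 3.37 and 3.57 CPM in the 3 AAV-shA4-treated WT mice. The values at 25 weeks were 4.67, 3.95, 3.69 and 3.56 CPM in untreated WT mice, 3.86, 3.06, 2.87, 2.93 and 4.04 CPM in AAV-shSCR-treated SCA7 mice and 4.37, 4.72, 4.37, 3.02 and 3.48 CPM in AAV-shA4-treated SCA7 mice. The untreated mice of 9 weeks again were the lowest, and the late groups overlapped. Cfap65 stood at 1.76, 3.00 and 4.16 CPM in the 3 untreated WT mice at 9 weeks and 4.13, 6.26 and 5.70 CPM in the 3 AAV-shA4-treated WT mice. In the late experiment Cfap65 was at 5.79, 4.41, 6.10 and 8.13 CPM in untreated WT mice, 5.34, 6.80, 5.13, 4.50 and 5.60 CPM in AAV-shSCR-treated SCA7 mice and 7.81, 4.74, 6.18, 2.70 and 9.55 CPM in AAV-shA4-treated SCA7 mice. In Cfap65 the early groups touched, since untreated replicate 3 stood above AAV-shA4-treated replicate 1. Spag17 stood at 0.172, 0.174 and 0.395 CPM in the 3 untreated WT mice at 9 weeks and 0.842, 0.4999 and 0.963 CPM in the 3 AAV-shA4-treated WT mice. Untreated WT mice of 25 weeks had 0.656, 0.319, 0.604 and 0.516 CPM, AAV-shSCR-treated SCA7 mice 0.708, 0.623, 0.442, 0.290 and 0.713 CPM and AAV-shA4-treated SCA7 mice 0.710, 0.803, 0.807, 0.667 and 0.403 CPM. Spag17 rested on 8 to 35 reads a mouse, and it overlaps Wdr3 and Spag17os on the opposite strand, with 1444 and 168.7 reads on average. Spag6l stood at 1.29, 1.44 and 1.33 CPM in the 3 untreated WT mice at 9 weeks and 2.15, 2.82 and 1.79 CPM in the 3 AAV-shA4-treated WT mice. At 25 weeks the level was 1.78, 1.88, 2.11 and 3.23 CPM in untreated WT mice, 1.68, 2.27, 1.84, 1.91 and 2.03 CPM in AAV-shSCR-treated SCA7 mice and 3.51, 1.35, 1.81, 1.02 and 2.67 CPM in AAV-shA4-treated SCA7 mice. For Spag6l, a gene with a similar copy elsewhere in the genome, replicates 1 and 5 of the AAV-shA4-treated SCA7 mice stood above the other 3. Ak7 stood at 2.15, 1.22 and 2.04 CPM in the 3 untreated WT mice at 9 weeks and 3.67, 3.92 and 3.71 CPM in the 3 AAV-shA4-treated WT mice. The late values of Ak7 were 2.72, 1.96, 3.27 and 3.41 CPM in untreated WT mice, 2.92, 3.51, 1.42, 2.15 and 4.41 CPM in AAV-shSCR-treated SCA7 mice and 4.20, 3.97, 3.42, 2.25 and 2.85 CPM in AAV-shA4-treated SCA7 mice. The Ak7 values of AAV-shSCR-treated mice alone spanned 1.42 to 4.41 CPM and held those of all untreated WT mice of 25 weeks.

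Hydin, a giant protein of the central pair, stood apart from the others of its group. Hydin stood at 9.92, 11.97 and 9.55 CPM in the 3 untreated WT mice at 9 weeks and 10.1, 12.97 and 10.6 CPM in the 3 AAV-shA4-treated WT mice. At 25 weeks Hydin stood at 12.1, 17.3, 12.9 and 13.8 CPM in untreated WT mice, 15.96, 16.5, 16.8, 17.9 and 16.5 CPM in AAV-shSCR-treated SCA7 mice and 12.3, 20.2, 16.3, 16.03 and 17.2 CPM in AAV-shA4-treated SCA7 mice. The early groups overlapped, with a log2 difference of 0.10 (SE 0.12). In SCA7 mice it had a log2 fold change of 0.26 (SE 0.12) with AAV-shSCR (adjusted p = 0.153) and 0.23 (SE 0.12) with AAV-shA4 (adjusted p = 0.225). Its log2 CPM, centred within groups over 20 mice, had an r of -0.374 with the mean of the other members, the lowest of the 45. Cfap69 had 9.92 to 14.3 CPM, with early and late groups that overlapped, and Spag16 had 1.08 to 3.56 CPM.

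Radial spoke genes showed smaller early differences than the central apparatus in the median, at 0.56 against 0.73 on the log2 scale, a comparison of 7 with 9 genes that was not tested. Rsph1 stood at 1.23, 1.72 and 2.60 CPM in the 3 untreated WT mice at 9 weeks and 3.40, 3.39 and 2.32 CPM in the 3 AAV-shA4-treated WT mice. The values at 25 weeks were 2.14, 2.07, 2.90 and 4.44 CPM in untreated WT mice, 1.62, 2.97, 2.55, 2.00 and 2.93 CPM in AAV-shSCR-treated SCA7 mice and 3.64, 1.94, 2.00, 1.33 and 2.95 CPM in AAV-shA4-treated SCA7 mice. In Rsph1, a spoke head protein, untreated replicate 3 of 9 weeks stood among the treated mice. Rsph4a stood at 1.33, 1.31 and 1.56 CPM in the 3 untreated WT mice at 9 weeks and 2.64, 2.84 and 2.10 CPM in the 3 AAV-shA4-treated WT mice. In the late experiment Rsph4a was at 2.51, 2.31, 3.51 and 2.99 CPM in untreated WT mice, 2.63, 2.89, 2.06, 1.74 and 3.14 CPM in AAV-shSCR-treated SCA7 mice and 4.04, 2.75, 3.54, 1.33 and 3.00 CPM in AAV-shA4-treated SCA7 mice. Rsph4a, also of the spoke head, separated the early mice by treatment and the untreated mice by week label. Iqub, Lrrc23, Cfap61, Cfap206 and Ak8 spanned 2.33 to 5.50, 2.95 to 6.18, 0.413 to 1.92, 0.698 to 2.55 and 0.413 to 1.47 CPM over the 20 mice. Ak8 had the largest negative log2 difference of the 45 with AAV-shSCR against untreated WT mice, -0.60 (SE 0.31), with an adjusted p of 0.207.

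The nexin-dynein regulatory complex was represented by Drc1 and Drc7, which had unlike profiles. Drc1 stood at 3.23, 2.46 and 2.37 CPM in the 3 untreated WT mice at 9 weeks and 3.21, 3.95 and 3.00 CPM in the 3 AAV-shA4-treated WT mice. Untreated WT mice of 25 weeks had 3.02, 2.34, 3.18 and 2.68 CPM, AAV-shSCR-treated SCA7 mice 2.51, 1.95, 2.11, 2.03 and 2.19 CPM and AAV-shA4-treated SCA7 mice 3.37, 2.77, 3.09, 1.68 and 2.67 CPM. Drc1 had a log2 difference of -0.38 (SE 0.16) with AAV-shSCR (adjusted p = 0.132) and -0.041 (SE 0.16) with AAV-shA4 (adjusted p = 0.907) against untreated WT mice. Drc7 stood at 2.75, 5.48 and 6.93 CPM in the 3 untreated WT mice at 9 weeks and 5.11, 7.31 and 3.85 CPM in the 3 AAV-shA4-treated WT mice. At 25 weeks the level was 5.42, 5.31, 7.78 and 14.2 CPM in untreated WT mice, 3.42, 10.1, 6.83, 6.35 and 6.55 CPM in AAV-shSCR-treated SCA7 mice and 9.57, 2.49, 3.48, 2.38 and 10.9 CPM in AAV-shA4-treated SCA7 mice. Drc7, described here after its values were seen, ran from 2.38 to 14.2 CPM, with both SCA7 groups and the WT group spanning most of that range. Of the proteins on the microtubule wall, Tekt1, a tektin, falls under the rule for named genes. Tekt1 stood at 1.25, 1.33 and 1.69 CPM in the 3 untreated WT mice at 9 weeks and 1.90, 2.55 and 2.04 CPM in the 3 AAV-shA4-treated WT mice. The late values of Tekt1 were 1.76, 1.54, 2.67 and 2.53 CPM in untreated WT mice, 1.86, 3.03, 2.14, 1.57 and 2.80 CPM in AAV-shSCR-treated SCA7 mice and 2.64, 2.36, 2.09, 1.14 and 2.47 CPM in AAV-shA4-treated SCA7 mice. Its late groups overlapped, and Cfap52 and Cfap126 spanned 0.921 to 2.86 and 1.91 to 4.15 CPM.

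The remaining 6 genes have no agreed place in the axoneme in the grouping used here, and 3 of them had the largest early differences of the set. Ccdc153 stood at 1.68, 0.827 and 1.62 CPM in the 3 untreated WT mice at 9 weeks and 5.30, 5.13 and 3.71 CPM in the 3 AAV-shA4-treated WT mice. At 25 weeks Ccdc153 stood at 2.49, 1.70, 3.71 and 2.30 CPM in untreated WT mice, 2.36, 1.47, 1.25, 1.07 and 2.85 CPM in AAV-shSCR-treated SCA7 mice and 3.60, 4.09, 3.70, 1.68 and 1.87 CPM in AAV-shA4-treated SCA7 mice. In SCA7 mice Ccdc153 had a log2 fold change of 0.73 (SE 0.30) for AAV-shA4 against AAV-shSCR, the largest of the 45, with overlapping groups and an adjusted p of 0.563. Frmpd2 stood at 0.624, 0.326 and 0.375 CPM in the 3 untreated WT mice at 9 weeks and 1.58, 1.74 and 1.39 CPM in the 3 AAV-shA4-treated WT mice. The values at 25 weeks were 1.43, 0.956, 1.69 and 1.06 CPM in untreated WT mice, 1.47, 1.13, 0.835, 0.522 and 1.56 CPM in AAV-shSCR-treated SCA7 mice and 1.20, 1.79, 1.59, 0.857 and 1.29 CPM in AAV-shA4-treated SCA7 mice. All 3 treated WT mice exceeded the 3 untreated ones by a wide margin, and the late groups overlapped. Rgs22 stood at 0.387, 0.283 and 0.395 CPM in the 3 untreated WT mice at 9 weeks and 1.20, 1.26 and 1.25 CPM in the 3 AAV-shA4-treated WT mice. In the late experiment Rgs22 was at 0.919, 0.478, 1.07 and 0.826 CPM in untreated WT mice, 0.914, 1.02, 0.393, 0.493 and 1.11 CPM in AAV-shSCR-treated SCA7 mice and 0.999, 1.01, 1.14, 0.667 and 0.605 CPM in AAV-shA4-treated SCA7 mice. Rgs22 rested on 13 to 49 reads a mouse. Tmem212 stood at 0.731, 0.609 and 0.791 CPM in the 3 untreated WT mice at 9 weeks and 2.01, 1.29 and 2.24 CPM in the 3 AAV-shA4-treated WT mice. Untreated WT mice of 25 weeks had 1.5, 0.690, 1.76 and 1.37 CPM, AAV-shSCR-treated SCA7 mice 1.24, 0.822, 0.835, 1.02 and 1.82 CPM and AAV-shA4-treated SCA7 mice 1.69, 2.02, 1.59, 1.17 and 0.933 CPM. The lowest AAV-shA4-treated WT mouse in Tmem212 stood above the highest untreated one. Mlf1 stood at 1.01, 1.04 and 1.44 CPM in the 3 untreated WT mice at 9 weeks and 1.55, 1.53 and 0.963 CPM in the 3 AAV-shA4-treated WT mice. At 25 weeks the level was 1.18, 0.902, 1.65 and 1.42 CPM in untreated WT mice, 0.649, 1.05, 1.301, 1.16 and 1.14 CPM in AAV-shSCR-treated SCA7 mice and 1.82, 0.985, 1.03, 0.889 and 1.69 CPM in AAV-shA4-treated SCA7 mice. Mlf1 overlapped in the early groups, which sets it apart from the other 4 named here. Early log2 differences were 1.77 (SE 0.25) for Ccdc153, 1.82 (SE 0.28) for Frmpd2, 1.79 (SE 0.27) for Rgs22, 1.37 (SE 0.26) for Tmem212 and 0.21 (SE 0.26) for Mlf1. Armc3 stood at 0.323 to 1.33 CPM.

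Over the whole set, AAV-shSCR-treated SCA7 mice were first compared with untreated WT mice of 25 weeks. The WT mice received no vector, so genotype and vector cannot be told apart in this comparison or in that of AAV-shA4-treated SCA7 mice with WT mice. 33 of the 45 were lower and 12 higher, while 50.5% of all genes tested were higher, with a median log2 fold change of -0.18, beside 0.0017 over 14862 genes tested. Without replicate 4 of the untreated WT mice, which had the most choroid plexus signal, the median was -0.059. With the adjusted p under 0.05 and the fold above 1.3, none of the members other than Dnah11 was called in either direction, while 4.02% of all genes were called, 1.35% higher and 2.66% lower. Dnah11 was past both limits and lower, but nothing is read from that, because it was chosen from a list made on these mice. Without replicate 1 of the AAV-shSCR group Cfap100 was called as well. With the adjusted p alone, Ccdc39, which was higher, was added, beside 15.5% of all genes in either direction and 6.89% higher. Groups did not overlap in 1 of 45, lower in SCA7 mice, beside 9.33% of all genes, and in none that was higher, beside 7.48%. Medians by role ran from -0.33 for the nexin-dynein regulatory complex to 0.11 for Ak9, the adenylate kinase. The 10 ependymal genes outside the axoneme were all lower, with a median of -0.12, and 1 of them, Nnat, passed both limits with -0.46 (SE 0.14, adjusted p = 0.0325). The shift was not particular to that list, since 7 of 8 genes of astrocytes and Bergmann glia were lower, with a median of -0.13. Which cells carried the shift was not tested. Choroid plexus genes moved with the members, having a median of -0.16 with 16 of 18 lower and 0 called. Their part in the result was not tested.

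In AAV-shA4-treated SCA7 mice against untreated WT mice, 29 members were higher and 16 lower, while 52.2% of all genes were higher, with a median of 0.062 beside 0.0061 over all genes. Again no member other than Dnah11 was called, beside 3.45% of all genes, 1.18% higher and 2.27% lower, and nothing is read from Dnah11 being past both limits. Groups did not overlap for Ccdc39, which was higher (5.53% of all genes), and for Dnah11, which was lower (7.91%). By role, medians ran from -0.26 for radial spokes and the nexin-dynein regulatory complex to 0.24 for the ruler. The median changed sign, to -0.044 and -0.051, without replicate 1 of the AAV-shA4 group or replicate 2 of the WT mice. Without replicate 4 of the AAV-shA4 group, the mouse with the lowest values, the median was 0.18, and Dnah2 also passed both limits with 0.41 (SE 0.13, adjusted p = 0.0496). All 18 choroid plexus genes were lower in this comparison, with a median of -0.57 and 0 called. Replicates 2, 3 and 4 summed to 59.8, 568 and 368 CPM of these genes, against 3502 and 3107 CPM in replicates 1 and 5. Their part in the members' values was not tested.

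The difference between the vectors was measured directly in SCA7 mice. 33 members were higher with AAV-shA4 than with AAV-shSCR and 12 lower, while 50.1% of all genes were higher, with a median of 0.18, or 0.28 without replicate 4 of the AAV-shA4 group, beside 0.00021 over all genes. The quasi-likelihood test of edgeR called 0 of 45 members and 0 of 14862 genes, which is 0% of all genes. At an unadjusted p under 0.05 it found 4 members, Ccdc153, Dnah10, Dnah3 and Drc1, each higher with AAV-shA4, and 1222 genes in all, or 8.22%, with 4.24% higher. Those 4 became 0 without replicate 2 of the AAV-shA4 group or replicate 4 of the AAV-shSCR group, and 11 without replicate 4 of the AAV-shA4 group. DESeq2 called 0 members, and 5 genes in all. No member had groups without overlap, beside 0.774% of all genes higher and 0.72% lower. An adjusted p above 0.05 does not show that the groups were alike, and with an SE of 0.30 a difference of the size measured for Ccdc153, 0.73, could not be told from 0 over all genes. By role, medians were 0.42 for the inner arm dyneins, all 6 of which were higher, 0.19 for the central apparatus and -0.013 for radial spokes. Choroid plexus genes were lower, with a median of -0.36 and 0 called.

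**Figure D4:**
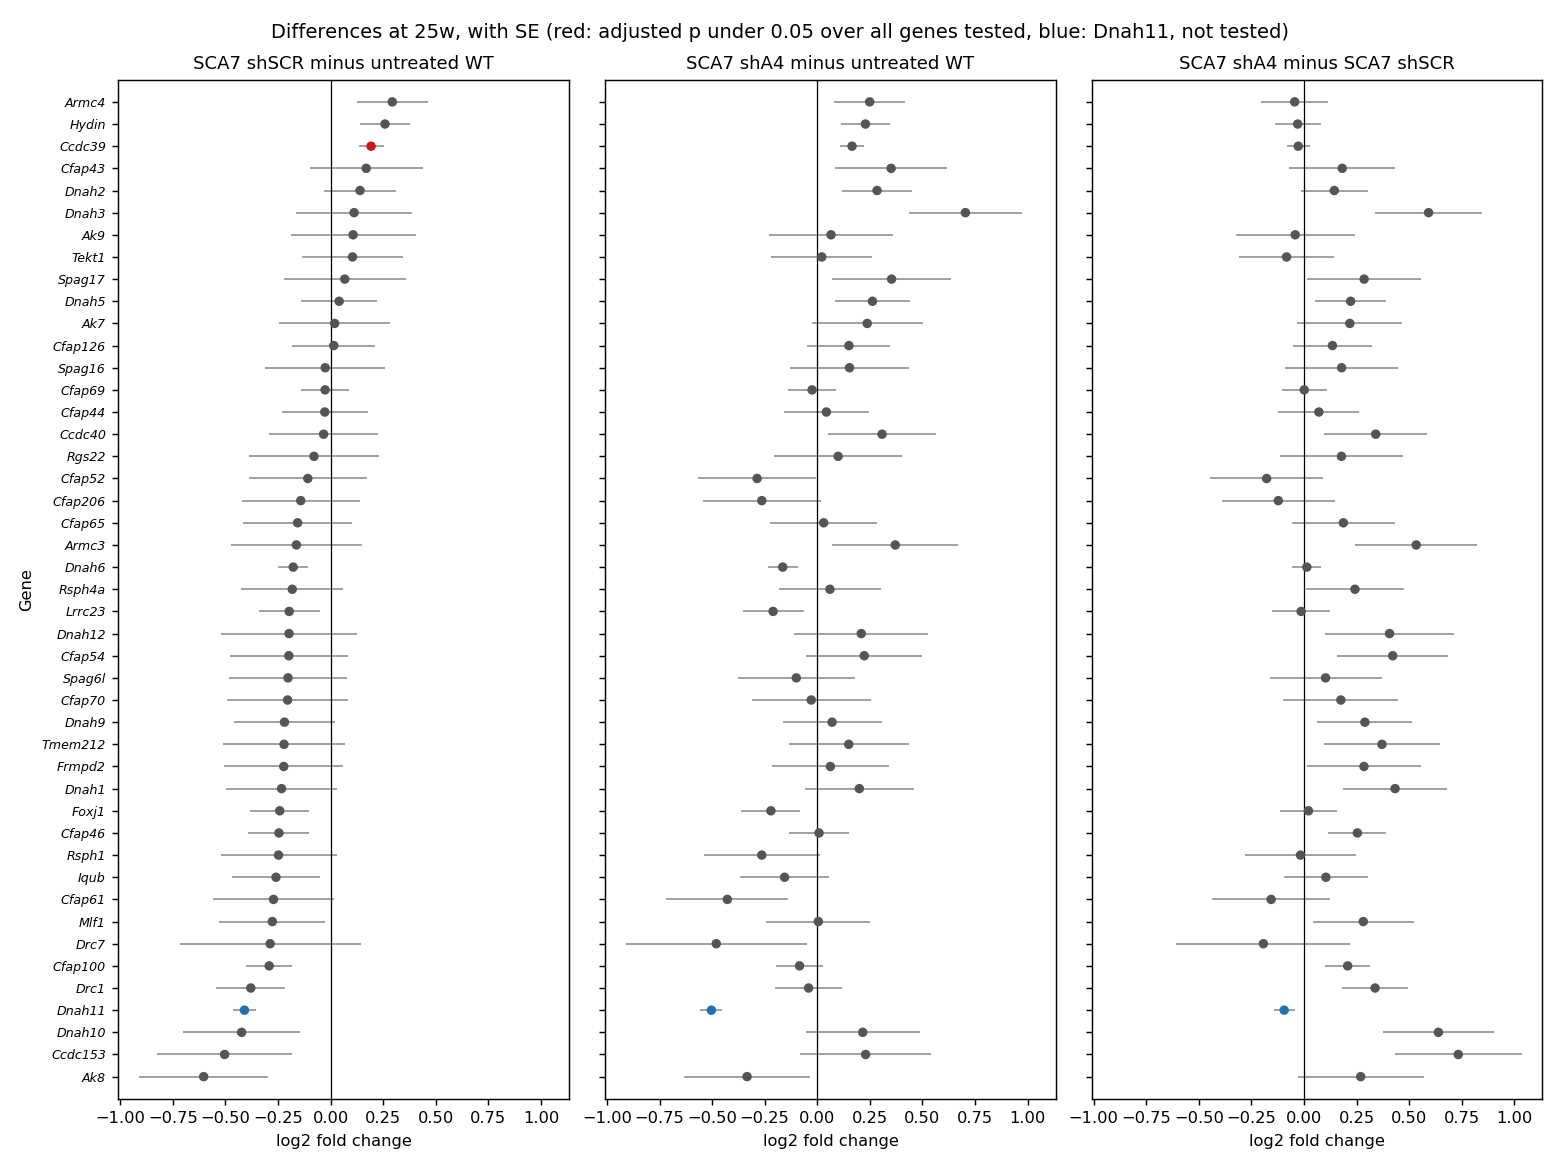
Log2 fold change of each of the 45 genes with its SE in the 3 comparisons at 25 weeks, ordered by the first. A red point has an adjusted p under 0.05 over all genes tested, and blue marks Dnah11, given without a test (-0.41 and -0.50 in the first and second panel). Ccdc39 in the first panel (0.19) is the 1 red point, and most points in the third panel are to the right of 0.

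The early comparison, which chose part of the set, is described without a test. 42 of 45 members were higher in AAV-shA4-treated than in untreated WT mice, beside 49.9% of all genes, with a median of 0.63 beside -9.9e-05 over 14733 genes. As a count that the choice of the set fixes in part, and from which nothing is read, 4 of them, Cfap54, Ccdc153, Dnah10 and Rgs22, were past both limits, all higher, where 0.0543% of all genes were in either direction 0.0475% higher and 0.00679% lower, and in 29 the groups did not overlap with the treated mice higher, beside 7.52% of all genes, and in none with the treated mice lower, beside 8.5%. The 4 became 0 without treated replicate 2 or untreated replicate 3, and 1 without treated replicate 1 or untreated replicate 2, with no share over all genes given beside them. The 3 lower members were Cfap69, Ccdc39 and Ak8, at -0.15, -0.14 and -0.075. By role, the 6 genes outside the named structures had a median of 1.57, the inner arm dyneins 0.84 and the nexin-dynein regulatory complex 0.22. Choroid plexus genes did not follow, with a median of -0.18 and 13 of 18 lower in treated mice. Other lists separated the early mice as well. Oligodendrocyte genes summed to 7101 to 7414 CPM in treated and 7730 to 8024 CPM in untreated mice, and genes of astrocytes and Bergmann glia to 3424 to 3601 CPM and 3176 to 3400 CPM. Their part in the members' values was not tested. The 10 ependymal genes outside the axoneme had a median of 0.20. The high antigen presentation genes of treated replicate 3 stood beside member levels that were the lowest of the treated group in 22 of 45 genes and the highest in 13.

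Untreated WT mice at 25 weeks were compared with those at 9 weeks, which share their libraries with the early comparison. Below this is called the comparison of ages, though the week labels are not ages of the mice, and week and experiment cannot be told apart. All 45 members were higher at 25 weeks, as were 51% of all genes, with a median of 0.66 beside 0.0047 over 15095 genes. Nothing is read from the count past both limits either, since the low controls are those that helped to choose the set. It was 18 of 45, all higher, beside 5.27% of all genes in either direction, 3.29% higher and 1.99% lower. The groups did not overlap in 20, beside 16.5% of all genes that were higher without overlap and 16.9% that were lower. The largest differences were 1.54 (SE 0.34) for Frmpd2 and 1.47 (SE 0.32) for Cfap54, and the smallest 0.051 (SE 0.18) for Armc4. Foxj1, Lrrc23, Drc1, Mlf1 and Cfap69 differed by 0.11, 0.072, 0.066, 0.15 and 0.095. Without replicate 1 of the untreated mice of 9 weeks 10 members were past both limits, and without replicate 2 there were 9. Shares over all genes are not given for these fits. Choroid plexus genes were higher too, with a median of 0.58 in 18 of 18. Ependymal genes outside the axoneme had a median of 0.023.

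Further genes of motile cilia, listed from general knowledge but with earlier results of these data known, are given beside the members. Of 53 such genes, 48 were tested at 25 weeks and 50 in the fits with early mice. Their medians were -0.033, 0.0051 and -0.0016 in the 3 late comparisons, in the order above, and 0.15 and 0.17 in the early and age comparisons. Trp73, a transcription factor needed for multiciliated cells, was lower in SCA7 mice, with a log2 fold change of -0.57 (SE 0.10, adjusted p = 0.000829) with AAV-shSCR and -0.46 (SE 0.099, adjusted p = 0.00462) with AAV-shA4. Cfap74, of the central apparatus, was lower with both vectors, at -0.36 (SE 0.055, adjusted p = 0.000245) with AAV-shSCR, a fold short of the limit, and -0.41 (SE 0.055, adjusted p = 6.33e-05) with AAV-shA4, past it. Between the vectors it differed by -0.053 (SE 0.052, adjusted p = 0.810). No other gene of this list passed both limits at 25 weeks. Over all genes tested, 4.02% did with AAV-shSCR and 3.45% with AAV-shA4 against untreated WT mice. The 28 genes of primary cilia and transport had medians between -0.015 and 0.064 in the 5 comparisons.

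Members followed the choroid plexus genes from mouse to mouse to very different degrees, with Pearson r spread from -0.565 to 0.888 around a median of 0.347. For each gene, log2 CPM was centred within the 5 groups and compared over 20 mice with the summed level of the 18 choroid plexus genes, treated likewise, by a permutation test within groups (100000 draws, two-sided). The same draws were made for all 15095 genes tested, and p-values were adjusted over them. Drc7 had a Pearson r of 0.888 (p = 1e-05, the smallest the draws can give, adjusted p = 0.00232) and a Spearman rho of 0.959 (p = 1e-05, adjusted p = 0.00243). Cfap52 had an r of 0.855 (p = 0.00012, adjusted p = 0.0173) and a rho of 0.967 (p = 1e-05, adjusted p = 0.00243). Ak8 had an r of 0.834 (p = 1e-05, adjusted p = 0.00232) and a rho of 0.889 (p = 2e-05, adjusted p = 0.00403). Cfap69, the central apparatus gene, had an r of 0.801 (p = 0.00022, adjusted p = 0.0277) and a rho of 0.774 (p = 0.00116, adjusted p = 0.0825). Spag6l had an r of 0.824 (p = 0.00498), which did not pass the adjustment (adjusted p = 0.235), and a rho of 0.901 (p = 3e-05), which did (adjusted p = 0.00559). Mlf1, Rsph1, Iqub and Cfap70 had r of 0.748, 0.713, 0.713 and 0.702, with adjusted p of 0.101 to 0.215. In all, 9 of the 45 relations had an r above 0.7, where 1.65% of all genes had, and 4 an adjusted p under 0.05, where 0.954% of all genes had. The lowest r was that of Cfap100, -0.565 (adjusted p = 0.345).

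For the leading genes r stayed high without the mice with the least choroid plexus signal. These genes were picked by their r over the same 20 mice, so the values below are descriptions and no independent test. Replicate 4 of the untreated WT mice at 25 weeks, with the most signal, was kept. The 2 mice farthest from the median were replicates 2 and 4 of the AAV-shA4-treated SCA7 mice. Without them r was 0.951 for Drc7, 0.935 for Cfap52, 0.850 for Ak8 and 0.917 for Spag6l, and for Cfap69 it fell to 0.744. In the same order, r within the 14 mice of 25 weeks was 0.898, 0.861, 0.839, 0.826 and 0.807. Within the 6 mice of 9 weeks it was 0.933, 0.932, 0.781, 0.812 and 0.881. In Cfap100 the sign changed between them, at -0.777 and 0.471. 15 members had r below 0, a count without the share over all genes. They include 5 of the 6 genes of the published early list, with r of -0.087 for Dnah10, -0.103 for Rgs22, -0.105 for Dnah3, -0.200 for Ccdc153 and -0.267 for Frmpd2, and also Tmem212 (-0.298) and Hydin (-0.408), none with an adjusted p under 0.05. Cfap54, the sixth, had an r of 0.360, with 0.411 within the mice of 25 weeks and -0.577 within those of 9 weeks. The sign also changed for Dnah3 (-0.189 and 0.501), Ccdc153 (-0.254 and 0.232), Rgs22 (-0.112 and 0.0708) and Hydin (-0.542 and 0.440). For Dnah10, Frmpd2 and Tmem212 it was negative in both. In replicate 2 of the AAV-shA4-treated SCA7 mice, with 59.8 CPM of choroid plexus genes, Drc7 stood at 2.49 CPM, among the lowest of the 20 mice, while Ccdc153 stood at 4.09 and Hydin at 20.2 CPM, each the highest of its group.

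**Figure D5:**
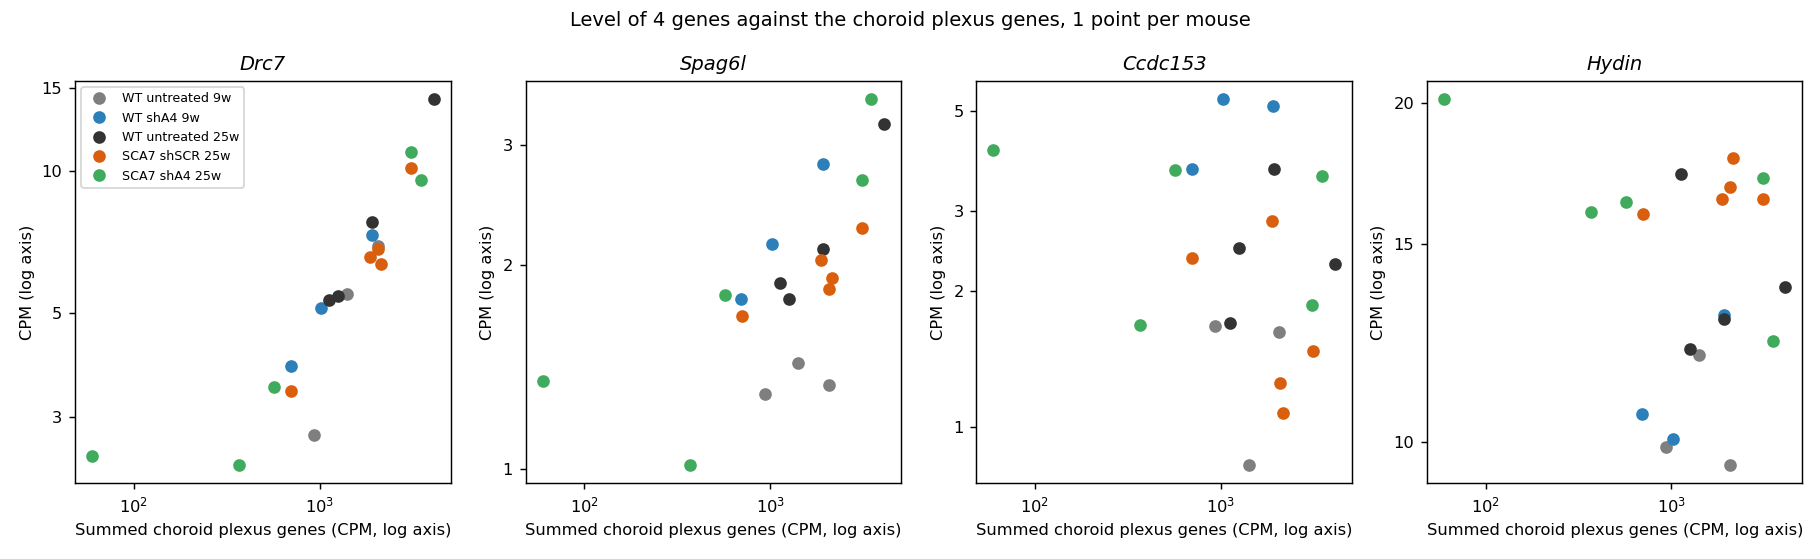
CPM of Drc7, Spag6l, Ccdc153 and Hydin (y axes, log) against the summed CPM of 18 choroid plexus genes (x axes, log), 1 point per mouse, coloured by group. Drc7 and Spag6l rise with the choroid plexus genes over a 68.7-fold range (r of 0.888 and 0.824 after centring within groups), and Ccdc153 and Hydin do not (-0.200 and -0.408).

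The members also varied together. Of 990 pairs, centred within groups over 20 mice, the median r was 0.436, from -0.568 to 0.937, the highest being Cfap52 with Drc7. With the mean of the other 44 members, 34 of 45 had an r above 0.5, led by Rsph4a and Tekt1 (both 0.910), Dnah9 (0.890) and Cfap43 (0.888). Dnah11 (0.160), Cfap100 (-0.078) and Hydin (-0.374) were at the other end. The points share their libraries, and sequencing depth was scaled but not otherwise removed, so these values are descriptions. Among genes that are no members, those most like the members' mean were Ttc21a (0.940), Cfap45 (0.897), Kif9 (0.895), Spef2 (0.886) and Dsg2 (0.882). Ttc21a stood at 3.66, 2.44, 2.53, 1.302 and 3.58 CPM in SCA7 mice given AAV-shA4, with the lowest value in replicate 4, as in 35 of the members.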

How the data were processed

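Each library was made from the total RNA of 1 mouse cerebellum with a stranded kit that captures polyadenylated RNA, and was sequenced as single reads of 50 bases. The authors deposited counts, as whole reads on each of 55401 genes of Ensembl release 102 that were not normalized. According to the submitters' processing notes, bcl2fastq 2.20.0.422, cutadapt 1.10, Bowtie2 2.2.8, STAR 2.5.3a and HTSeq 0.6.1p1 were used with mouse build mm10. Short, multiply mapped and ribosomal reads lost in these steps cannot be recovered here, so genes with near copies may be undercounted.

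Symbols, gene types and the longest transcript of each gene were taken from GENCODE release M21 of the same build, which holds 55141 of the identifiers and lacks 260. All 45 members were found by symbol, and the other lists also by older names. Tests covered the 21897 protein-coding genes, filtered with filterByExpr (minimum count 10, minimum total 15) and scaled by TMM, with edgeR 4.0.16 in R 4.3.3. The quasi-likelihood test was fitted to the 14 libraries of 25 weeks (14862 genes), to the 6 of 9 weeks (14733 genes) and, for age, to all 20 (15095 genes). Benjamini-Hochberg adjustment ran over all genes of a fit, and a call needed both an adjusted p below 0.05 and a 1.3-fold change up or down. The p-values of edgeR set the difference between 2 groups against the spread between mice within groups, estimated over all groups of the fit. Log2 CPM has 0.1 CPM added where single mice are plotted or correlated. Permutations and promoter windows were handled in Python 3.11.15 with numpy 2.4.6, pandas 2.3.3 and scipy 1.17.1.

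Alternatives were size factors of the RLE method, library size alone for summed levels, no filter on low counts, DESeq2 1.42.0, all gene types, each library left out in turn, the replicate number as a block, other sets of libraries in the fit, and no limit on the fold change. On simulated data with known changes, the late fit recovered 98% of genes changed by 1 and 84% of those changed by 0.5 on the log2 scale, with 4 false calls among 14797 genes. The early fit recovered 98% and 78%, with 11 false calls among 14659 genes. The changed genes were drawn from all genes with a mean above 1 CPM, whatever their spread. Members varied more within groups, with a median SD of log2 CPM of 0.40 against 0.093 over all genes tested. The shares recovered therefore do not describe the members. In each of 32 pairs of mice of a group the counts differed beyond sampling (chi-squared over its degrees of freedom 4.88 to 26.2), and no library was counted as a repeat of another.

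Groups were taken from the labels. The members and the gene lists were chosen with earlier results of these data known. Genes whose values are given mouse by mouse were set by a rule, which names Foxj1, the genes of the published lists, 12 further axonemal genes (Rsph1, Rsph4a, Tekt1, Tmem212, Hydin, Spag6l, Drc1, Ccdc39, Ak7, Dnah5, Dnah9 and Mlf1), any member called at 25 weeks or between ages, and the 5 other genes most like the members. The authors' lists of changed genes, protein measurements and behaviour were not analysed here.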

Additional observations from a re-analysis of the deposited data

Results flagged for a closer look

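In the 3 groups of 4 or 5 mice, the values of each member and the summed levels of the members and of the choroid plexus genes were examined for a mouse whose distance to its nearest neighbour takes up most of the group's range (Dixon's test, 95% level). 141 groups of values were examined and 4 were flagged, where chance alone flags about 1 in 20. Dnah6, an inner arm dynein, stood at 21.3 CPM in replicate 5 of the AAV-shSCR-treated SCA7 mice and at 19.4 to 19.96 CPM in the other 4. Cfap43, which tethers inner arms, stood at 0.921 CPM in replicate 4 of the AAV-shA4-treated SCA7 mice and at 2.44 to 2.84 CPM in the others. Cfap52, on the microtubule wall, stood at 1.18 CPM in replicate 1 of the AAV-shSCR-treated SCA7 mice and at 1.82 to 2.07 CPM in the others. Iqub, a radial spoke protein, stood at 5.50 CPM in replicate 4 of the untreated WT mice at 25 weeks and at 3.19 to 3.57 CPM in the others. That Iqub mouse also had the highest choroid plexus level of the 20, 4105 CPM, and the mouse with low Cfap52 the lowest of its group, 701 CPM.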

How the results depend on the processing

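Of 157 recomputed counts, medians and sums, 145 stayed near the reported value and 12 moved. For the calls against untreated WT mice, without the limit on the fold change AAV-shSCR gave 2 members in place of 1, and leaving out 1 library gave 1 to 2 with either vector. The 1 member was Dnah11, from which nothing is read. Between the vectors each alternative gave 0. Between ages, leaving out 1 library gave 9 to 18 members in place of 18. In the early comparison DESeq2 gave 8 in place of 4, and leaving out 1 library gave 0 to 5. Nothing is read from the counts between ages and in the early comparison, whose values helped to choose the set. Shares of all genes called are not given beside these counts, so a moved count is not read as particular to the members. Medians with 1 library left out ran from -0.26 to -0.059 with AAV-shSCR, from -0.051 to 0.18 with AAV-shA4, from 0.092 to 0.28 between the vectors, from 0.51 to 0.80 between ages, and from 0.55 to 0.77 in the early comparison. The cause was not tested. Of 368 values of 8 genes (Foxj1, Cfap54, Ccdc153, Ccdc39, Dnah3, Dnah6, Dnah11 and Drc7) in the 3 late comparisons, 10 lost an adjusted p under 0.05, all of Ccdc39, 2 gained one, both of Dnah6, and none reversed a call. Ccdc39 lost it with AAV-shSCR also without the filter (adjusted p = 0.0536) and with all 20 libraries in the fit (0.0633). Dnah11 was lower in all 16 settings, with log2 fold changes of -0.44 to -0.38 with AAV-shSCR and -0.54 to -0.49 with AAV-shA4. That is a description, because Dnah11 was chosen from a list made on these mice and the settings share their libraries.

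Deviations of mice with the same replicate number had r of -0.22 to 0.54 over the 5 comparisons. The highest was that of replicate 1 of the AAV-shA4-treated SCA7 and untreated WT mice of 25 weeks. The labels do not state that the numbers pair mice, and shared handling was not tested. With the replicate number as a block, 1, 1, 0, 19 and 7 members were called in the comparisons of AAV-shSCR and of AAV-shA4 with WT mice, of the vectors, of ages and of early WT mice, the last in place of 4. The 1 member called against WT mice was Dnah11. Nothing is read from it or from the counts of ages and of early WT mice, which rest on values that helped to choose the set. Shares of all genes called with the block are not given. With the block the medians were -0.24, -0.016, 0.17, 0.72 and 0.63, of which the second changed sign, and Ccdc39 had an adjusted p of 0.0930.

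Low counts limit these genes: 8 to 35 reads for Spag17 and 8 to 50 for Ak9 leave wide counting error, and their late differences have SE of 0.27 to 0.30.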
